A study of Mus musculus with 6 samples.

Results

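The circular RNAs (circRNAs) of 4 host genes of the glutamatergic synapse were examined in the hippocampus of mice after tibial fracture surgery. The host genes are Gria1, Grin3a, Grm5 and Homer1. Their circRNAs are the rows with these gene symbols among the 1257 rows that could be read from the study's list of circRNAs whose mean was higher after surgery. Each gene had 1 row. The 4 probes are 4 of the 14236 circRNA probes on the array. The study also placed these host genes in its glutamatergic synapse pathway from changes on the same arrays. An increase after surgery in the study's own values was therefore fixed by the choice, and neither the direction nor the number of increases was tested.

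RNA was taken from the hippocampus of 6 male C57BL/6J mice at 12 months of age, with 3 mice in the surgery group, 3 in the control group and 1 mouse per array. The surgery group had a left tibial fracture fixed with an intramedullary nail under isoflurane and an analgesic that the labels spell butorphenol, and the tissue was taken 72 h later. Control mice had the anesthesia and the analgesia without the operation, so the comparison covers the fracture and the nail together. According to the paper, both groups also went through behavioral testing. Fear conditioning with tones and foot shocks came before surgery, and contextual, cued and open field tests fell on the day of tissue collection. The hippocampus was therefore not that of untrained mice in either group, and an effect of this testing on the circRNAs was not tested. Linear RNA was digested with RNase R before Cy3 labeling, and each array gave the scanner intensity of 15712 spots, without normalization between arrays. The median intensity of the circRNA probes was 52 to 60 on the surgery arrays and 52.5 to 71.5 on the control arrays, over a median local background of 12.5 to 13. Between 9257 and 13009 circRNA probes per array were well above background, the fewest on control replicate 1, and 0 spots were saturated. All arrays were on 1 slide, where the first row held surgery replicate 1 and the 3 control arrays and the second row held surgery replicates 2 and 3. Precision is limited by the small number of arrays. Whole tissue was measured, so fewer cells of a type and less RNA per cell cannot be told apart.

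Glutamate carries most fast excitatory transmission in the hippocampus. It opens ion channels of the AMPA, NMDA and kainate classes, and it also acts on metabotropic receptors that signal through G proteins. Homer proteins are scaffolds of the postsynaptic density that bind group I metabotropic receptors and connect them to calcium release and to other scaffolds. A circRNA is a closed loop, formed when a downstream splice site joins an upstream one of the same transcript. It has no free ends and so resists RNase R, and circRNAs are abundant in brain, where synaptic genes host many of them.

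Each circRNA was read by 1 probe of 60 bases, and these probes are what the measurements below rest on. They are given 5′ to 3′ as listed by the study, with capitals on the longest run of bases shared with another probe among the 4 members and the 6 other glutamate receptor circRNAs described further on. The last 2 sequences are those of Grin2a and Grin2b probes, shown because they hold the longest shared run of the family.
mmu_circRNA_23399 of Gria1: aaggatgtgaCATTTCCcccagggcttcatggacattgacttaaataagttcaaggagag
mmu_circRNA_36776 of Grin3a: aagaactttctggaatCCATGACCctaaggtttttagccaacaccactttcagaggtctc
mmu_circRNA_41814 of Grm5: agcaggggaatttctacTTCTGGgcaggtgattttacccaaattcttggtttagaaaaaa
mmu_circRNA_26704 of Homer1: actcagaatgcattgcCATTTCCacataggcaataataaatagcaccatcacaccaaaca
mmu_circRNA_29202 of Grin2a: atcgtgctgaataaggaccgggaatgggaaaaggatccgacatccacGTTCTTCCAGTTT
mmu_circRNA_000233 of Grin2b: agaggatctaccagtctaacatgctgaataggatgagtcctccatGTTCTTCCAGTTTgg

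The Gria1 and Homer1 probes shared a run of 7 bases with each other, and the longest runs of the Grin3a and Grm5 probes were 8 bases, shared with a Grik3 probe, and 6 bases, shared with the Grin3a probe. The Grin2a and Grin2b probes shared a run of 13 bases. Over all 1257 probes that could be read, the longest run that a member shared with any other was 12 bases for Gria1 and for Homer1, and 10 bases for Grin3a and for Grm5. G and C made up 43.3% of the Gria1 and Grin3a probes and 38.3% of the Grm5 and Homer1 probes, against a median of 43.3% over the 1257 probes. Whether the shared bases let a probe bind another RNA was not tested.

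All 4 circRNAs are annotated as exonic, and they differ widely in the genomic distance between their ends. The Grin3a circRNA spans 1.05 kb of chromosome 4 (chr4:49770419-49771466, minus strand, transcript NM_001033351). The Homer1 circRNA spans 9.51 kb of chromosome 13 (chr13:93346569-93356079, plus strand, NM_147176). The Gria1 circRNA spans 25.3 kb of chromosome 11 (chr11:57217772-57243119, plus strand, NM_008165). The Grm5 circRNA spans 207.9 kb of chromosome 7 (chr7:87596116-87804064, plus strand, NM_001081414). The median span over the 1257 readable rows was 12.8 kb, and 81.9% of these rows were exonic. The list names no genome build. Each of the 4 intervals lies inside the RefSeq gene of the same symbol on GRCm38.p6, as do 817 of the 820 exonic rows drawn from the same source.

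The circRNAs of Grin3a and Grm5 were about 1.5-fold higher after surgery, and those of Gria1 and Homer1 about 1.12-fold higher. On the log2 scale the differences were 0.62 for Grin3a, 0.58 for Grm5, 0.16 for Gria1 and 0.16 for Homer1, against a median of −0.01 over the 12499 tested probes. None of the 4 reached an adjusted p under 0.05 in limma's test, with p-values adjusted over all tested probes by the Benjamini-Hochberg method. This call was made for 0.048% of the tested probes, all of them higher after surgery. A circRNA counted as changed in the study when the fold change reached 1.3 and the unadjusted p of the methods' t-test was 0.05 or lower. With these thresholds and limma's unadjusted p in its place, Grin3a and Grm5 were called and Gria1 and Homer1 were not, as also with the methods' t-test. With limma's p these thresholds called 4.19% of all tested probes as higher and 1.94% as lower, and 8.51% of the readable rows as higher. The counts over all tested probes were 524 higher and 242 lower with limma's p, and 393 and 140 with the methods' t-test. The members were chosen from the same contrast, so nothing is read from their share. All 4 probes were well above background on all 6 arrays, and none of their spots was marked as not uniform.

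**Figure D1:**
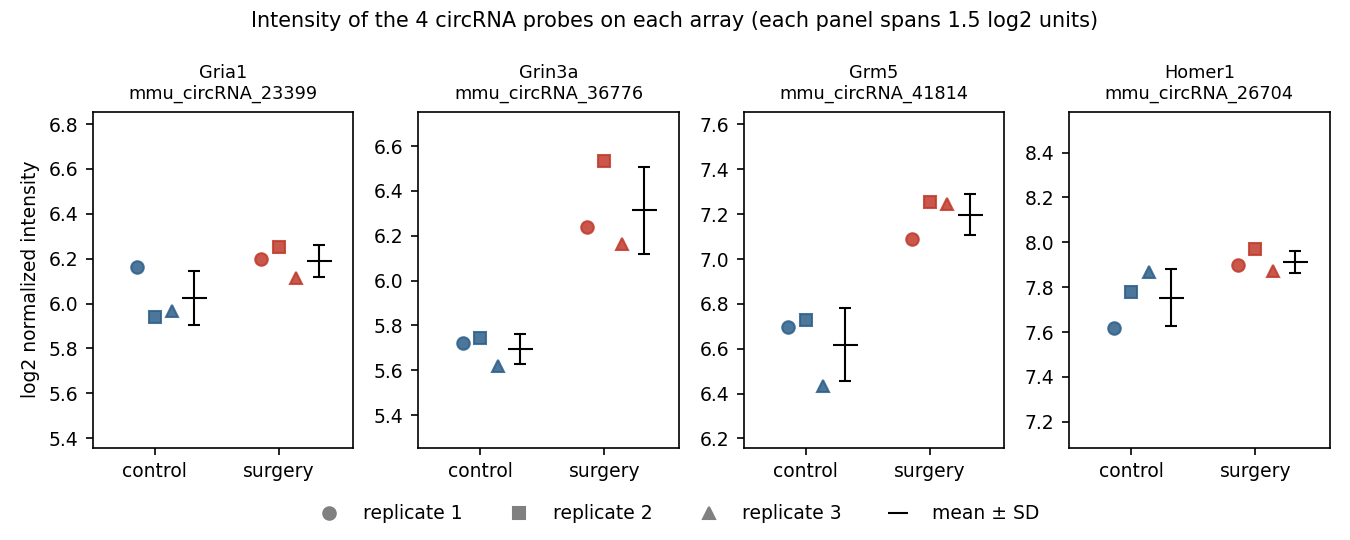
Log2 normalized intensity (vertical axis) of the 4 circRNA probes on the 3 control and 3 surgery arrays, 1 point per mouse, with the mean ± SD of each group beside the points. The groups are apart for Grin3a and Grm5 by 0.42 and 0.36 log2 units, nearly touch for Homer1 and overlap for Gria1.

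Gria1 encodes the GluA1 subunit of AMPA receptors, the channels that carry most fast excitatory current and whose number at the synapse changes during long-term potentiation. The probe of mmu_circRNA_23399 had log2 normalized intensities of 6.20, 6.25 and 6.11 on surgery replicates 1 to 3 and of 6.16, 5.94 and 5.97 on control replicates 1 to 3. The groups overlapped, because control replicate 1 lay above surgery replicate 3. The means were 6.19 ± 0.07 (SD, n = 3) after surgery and 6.02 ± 0.12 (SD, n = 3) in the controls. Surgery minus control was 0.16 on the log2 scale, with a standard error of 0.10 and a 95% interval of −0.05 to 0.38 (limma's test, adjusted p = 0.357). An exact permutation test over the 6 arrays, two-sided, gave p = 0.2. Before normalization, spots read 65.5 to 79 in the surgery group and 55 to 75.5 in the control group, with local backgrounds of 12 to 15. Some alternatives gave a value just below 0. The log2 fold change was −0.022 when the median signal was scaled to its 75th percentile, where the median over all tested probes was −0.18 and Gria1 lay 0.15 above it, and −0.0042 with slide column as a covariate.

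Grin3a encodes GluN3A, an NMDA receptor subunit that lowers calcium permeability and is known for its role in immature synapses. Its circRNA, mmu_circRNA_36776, showed the largest log2 fold change of the 4, except that Grm5 was ahead without normalization, with the median signal scaled to the 75th percentile, with normexp at an offset of 50 and without surgery replicate 2. The probe had log2 normalized intensities of 6.24, 6.53 and 6.16 on surgery replicates 1 to 3 and of 5.72, 5.74 and 5.62 on control replicates 1 to 3. Every surgery array lay above every control array, and surgery replicate 2 stood above the other surgery arrays. The means were 6.31 ± 0.20 (SD, n = 3) and 5.70 ± 0.07 (SD, n = 3). The fold change was 1.53 (95% interval 1.29 to 1.82), a log2 fold change of 0.62 with a standard error of 0.11 (limma's test, adjusted p = 0.0572). The exact permutation test, two-sided, gave p = 0.1, which is the lowest value possible with 3 arrays per group. This log2 fold change ranked 48 among the 12499 tested probes and 13 among the 1257 readable rows.

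This was also the member whose log2 fold change varied most between background treatments. Before normalization its spots read 67.5, 100 and 74 in the 3 surgery mice and 53, 48 and 61 in the 3 control mice, over local backgrounds of 12 to 14. On control replicate 2 the spot was 4.0 times its local background. The processed signal, from which the scanner software had already subtracted background, was 44.4, 77.1 and 48.8 in the surgery group and 21.6, 22.3 and 30.2 in the control group. Quantile normalization of the processed signal gave a log2 fold change of 1.14 in place of 0.62 (limma's test, adjusted p = 0.0327). Without surgery replicate 2 the log2 fold change on the median signal was 0.49, the lowest value with any array left out, and the highest was 0.68.

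Grm5 encodes mGluR5, a metabotropic receptor that acts through Gq and phospholipase C and is needed for forms of long-term depression in the hippocampus. The probe of mmu_circRNA_41814 had log2 normalized intensities of 7.09, 7.25 and 7.25 on surgery replicates 1 to 3 and of 6.69, 6.73 and 6.43 on control replicates 1 to 3. The groups did not overlap, and the lowest surgery array lay 0.36 above the highest control array. The means were 7.20 ± 0.09 (SD, n = 3) after surgery and 6.62 ± 0.16 (SD, n = 3) in the controls. The fold change was 1.49 (95% interval 1.27 to 1.76), a log2 fold change of 0.58 with a standard error of 0.11 (limma's test, adjusted p = 0.0574). The exact permutation test, two-sided, gave p = 0.1. Among all tested probes this log2 fold change ranked 76. The separation was present before any normalization, when spots read 128, 176 and 164 in the surgery group and 97, 93 and 99 in the control group, at local backgrounds of 12 to 13. Leaving out any array kept the value between 0.50 and 0.63.

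Homer1 encodes a scaffold of the postsynaptic density that binds the C-terminal tail of mGluR5. A short form, Homer1a, is induced by activity and uncouples the long forms from the receptor. The probe of mmu_circRNA_26704 had log2 normalized intensities of 7.90, 7.97 and 7.87 on surgery replicates 1 to 3 and of 7.62, 7.78 and 7.87 on control replicates 1 to 3. The groups did not overlap, but the lowest surgery array and the highest control array differed by only 0.01. The means were 7.91 ± 0.05 (SD, n = 3) and 7.75 ± 0.13 (SD, n = 3). The difference was 0.16 on the log2 scale, with a standard error of 0.10 and a 95% interval of −0.06 to 0.38 (limma's test, adjusted p = 0.366). The exact permutation test, two-sided, gave p = 0.1. This log2 fold change lay within the highest 21.4% of the tested probes.

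The Homer1 spots were the brightest of the 4, at 226 to 300.5 in the surgery group and 172.5 to 230.5 in the control group. They were 15.5 to 23.1 times their local background. The difference was 0.40 without normalization between arrays (limma's test, adjusted p = 0.394) and 0.26 after scaling to the 75th percentile (adjusted p = 0.113). Relative to the median over all tested probes, Homer1 lay 0.44 higher with that scaling and 0.17 higher as reported. It fell to 0.09 without control replicate 1, the control array with the lowest Homer1 value. The adjusted p stayed above 0.05 in all 21 alternatives, with a range of 0.113 to 0.719. The circRNA mmu_circRNA_26701 of the same gene was not among the readable rows, and its array signal is not given. By qRT-PCR the study reports higher levels of mmu_circRNA_26701 and of Homer1 mRNA after surgery. The forward qPCR primer that the study lists for this circRNA lies within the probe of mmu_circRNA_26704. Whether that probe also reads mmu_circRNA_26701 was not tested.

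**Figure D2:**
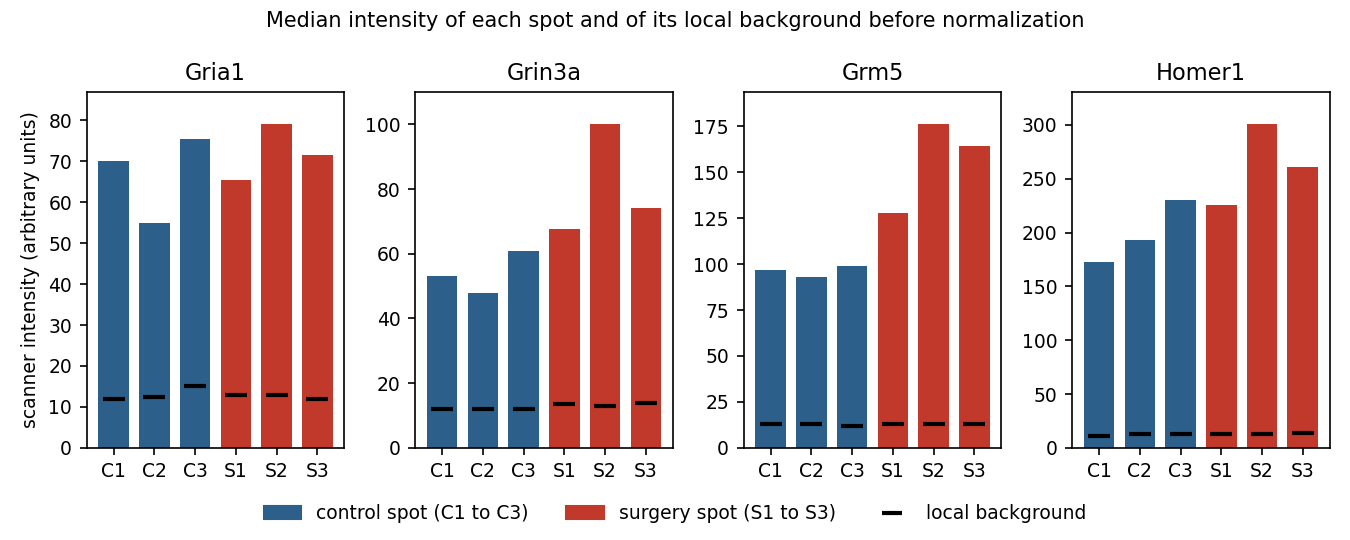
Median scanner intensity of each member's spot (bars, arbitrary units, from 0) and of its local background (black marks) on control arrays C1 to C3 and surgery arrays S1 to S3 before normalization. Local background stayed between 11 and 15 throughout, and every surgery bar exceeds every control bar for Grin3a and Grm5 but not for Gria1 or Homer1.

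Around the Grin3a spot the local background was 13.5, 13 and 14 on surgery replicates 1 to 3 and 12 on each control array, so the groups did not overlap and lay in the same order as the Grin3a signal. The Grin3a groups also did not overlap in the processed signal, from which background had been subtracted, at 44.4 to 77.1 after surgery and 21.6 to 30.2 in the controls. Around the Grm5 spot it averaged 13 in the surgery group and 12.7 in the control group. The averages in the same order were 12.7 and 13.2 for Gria1 and 13.3 and 12.2 for Homer1. The position of arrays on the slide was not balanced between the groups, so the comparison was repeated within it. In slide row 1, surgery replicate 1 exceeded the mean of the 3 control arrays by 0.54 for Grin3a, 0.47 for Grm5, 0.18 for Gria1 and 0.14 for Homer1. In slide column 2, the only column with both groups, surgery replicate 3 exceeded control replicate 1 by 0.44 for Grin3a, 0.55 for Grm5 and 0.26 for Homer1. For Gria1 that difference was −0.05. These single arrays allow no test. With slide row as a block the adjusted p in limma's test was 0.214 for Grin3a and 0.234 for Grm5, and with slide column as a covariate it was 0.704 for both.

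**Figure D3:**
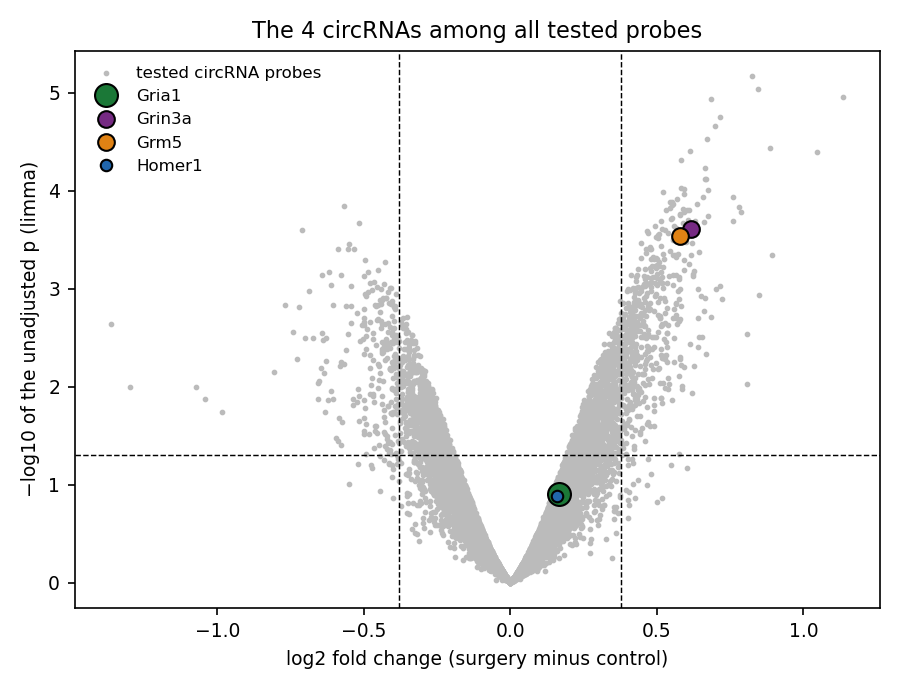
Log2 fold change, surgery minus control (horizontal axis), against −log10 of the unadjusted p from limma's test (vertical axis) for the 12499 tested circRNA probes, with the 4 circRNAs as large points and dashed lines at the 2 thresholds of the methods. Grin3a and Grm5 lie close together beyond both lines at 0.62 and 0.58, and Gria1 and Homer1 lie nearly on top of each other at 0.16, inside them.

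The members fell into a pair near 0.6 and a pair near 0.16 on the log2 scale, and the differences between them were tested with the ratio of their probes within each array. For this, 6 pairs of members and 2 pairs of circRNAs from the same receptor gene were compared. The log2 fold change of Grin3a exceeded that of Gria1 by 0.45 and that of Homer1 by 0.46. That of Grm5 exceeded that of Gria1 by 0.41 and that of Homer1 by 0.42. In each of these 4 comparisons the ratios of the 3 surgery arrays did not overlap those of the 3 control arrays (exact permutation test, two-sided, p = 0.1 each, 0.16 after Benjamini-Hochberg adjustment over the 8 pairs). Since p cannot go below 0.1 in this design, none could pass. The 4 comparisons were also singled out by the same fold changes and share their probes, so nothing is concluded from the lack of overlap. Grin3a and Grm5 differed by 0.04 (exact permutation test, p = 0.9), and Gria1 and Homer1 by 0.01 (p = 1).

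Over the 6 arrays, the log2 normalized intensities of Grin3a and Grm5 had a Pearson correlation of 0.93. Gria1 had correlations of 0.79 with Grin3a, 0.72 with Grm5 and 0.24 with Homer1. Those of Homer1 were 0.70 with Grin3a and 0.55 with Grm5. These 6 points share the normalization and the group difference. After the group means were taken off, the correlations ran from −0.55 for Gria1 with Homer1 to 0.49 for Gria1 with Grin3a, and that of Grin3a with Grm5 was 0.45. Surgery replicate 2 held the highest value of all 6 arrays for each of the 4 circRNAs. The lowest value fell on control replicate 1 for Homer1, on control replicate 2 for Gria1 and on control replicate 3 for Grin3a and Grm5.

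The circRNAs whose pattern over the 6 arrays was most like each member were sought among the other 1256 readable rows, all of which have a higher mean after surgery in the study's list. Most like Grin3a were the circRNAs of Herc4, an E3 ubiquitin ligase (mmu_circRNA_22135, Pearson correlation 0.997), Cnksr2, a postsynaptic scaffold protein (mmu_circRNA_45879, 0.995), and Gabra4, a GABA-A receptor subunit (mmu_circRNA_38750, 0.995). Their log2 fold changes were 0.51, 0.29 and 0.33. Among the 3 most like Grm5 were those of Tbc1d12 (mmu_circRNA_32565, 0.989) and Zcchc2 (mmu_circRNA_20634, 0.989), with log2 fold changes of 0.67 and 0.44. Most like Gria1 were those of Acbd3, a Golgi protein (mmu_circRNA_21453, 0.982), the kinase Stk24 (mmu_circRNA_28061, 0.981) and Ccdc6 (mmu_circRNA_22187, 0.980). Most like Homer1 were those of Mga, a transcription factor of the Myc network (mmu_circRNA_004259, 0.984), Mllt10 (mmu_circRNA_33053, 0.979) and the kinase Yes1 (mmu_circRNA_015216, 0.975). The median correlation over all 1256 was 0.55 for Grin3a, 0.53 for Grm5, 0.47 for Gria1 and 0.42 for Homer1.

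A list of 24 glutamate receptor genes was read against the same rows. Besides Gria1, Grin3a and Grm5, 4 of its genes had 6 circRNAs there, namely Grin2a, Grin2b, Grik3 and Grid1. In limma's test none of the 6 had an adjusted p under 0.05, 2 had an unadjusted p under 0.05, and 1 passed the thresholds on fold change and limma's unadjusted p. An unadjusted p under 0.05 with a higher value after surgery was found for 11.6% of all tested probes and 24.7% of the readable rows, and with a lower value for 9.11% of all tested probes. The 6 circRNAs had a median log2 fold change of 0.14, the same as over the 1257 readable rows to 2 decimals, against −0.01 over all tested probes. Of the 6, 3 had groups that did not overlap, against 13.5% of all tested probes and 28.5% of the readable rows that were higher after surgery without overlap. These rows were also listed by the study for a higher mean after surgery, so their direction is not read as a result. With the processing used here, 1 of the 6 and 57 of the 1257 readable rows were lower after surgery.

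A Grin2a and a Grin2b circRNA, both of NMDA receptor genes, stood highest among the 6. Grin2a and Grin2b encode the GluN2A and GluN2B subunits, which bind glutamate and set how long the channel stays open. The Grin2a circRNA, mmu_circRNA_29202 (54.4 kb on chromosome 16), read 6.50, 6.22 and 6.31 on surgery replicates 1 to 3 and 6.21, 5.61 and 5.96 on control replicates 1 to 3 on the log2 scale. Its groups did not overlap but came within 0.015 of each other, and control replicate 2 was the lowest. The log2 fold change was 0.42 with a standard error of 0.15 (limma's test, adjusted p = 0.161). This is the 1 circRNA of the 6 that passed the thresholds on fold change and limma's unadjusted p, and it did not pass them with the methods' t-test. The Grin2b circRNA mmu_circRNA_000233 (0.599 kb) read 7.18, 7.36 and 7.35 after surgery and 6.94, 7.04 and 6.86 in the controls, without overlap. Its log2 fold change was 0.35 with a standard error of 0.10 (limma's test, adjusted p = 0.105). The probes of these 2 circRNAs are the ones that hold the shared run of 13 bases shown above.

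A second Grin2b circRNA did not show the same values. mmu_circRNA_40969 (0.429 kb) read 6.45, 6.42 and 6.29 after surgery and 6.36, 6.25 and 6.30 in the controls, which overlapped. Its log2 fold change was 0.09 (limma's test, adjusted p = 0.610). The difference of 0.27 between the log2 fold changes of the 2 Grin2b circRNAs gave p = 0.2 in an exact permutation test of their ratio, two-sided. The 2 circRNAs of Grik3, a kainate receptor subunit, had log2 fold changes of −0.00026 (mmu_circRNA_37589) and 0.20 (mmu_circRNA_37590). Their ratio did not overlap between the groups (exact permutation test, two-sided, p = 0.1, 0.16 adjusted over the 8 pairs).

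Grid1, which encodes a delta receptor, a synaptic organizer of the glutamate receptor family, had 1 circRNA. mmu_circRNA_016254 averaged 7.82 ± 0.03 (SD, n = 3) after surgery and 7.80 ± 0.03 (SD, n = 3) without it, a log2 fold change of 0.03 with a 95% interval of −0.16 to 0.22.

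**Figure D4:**
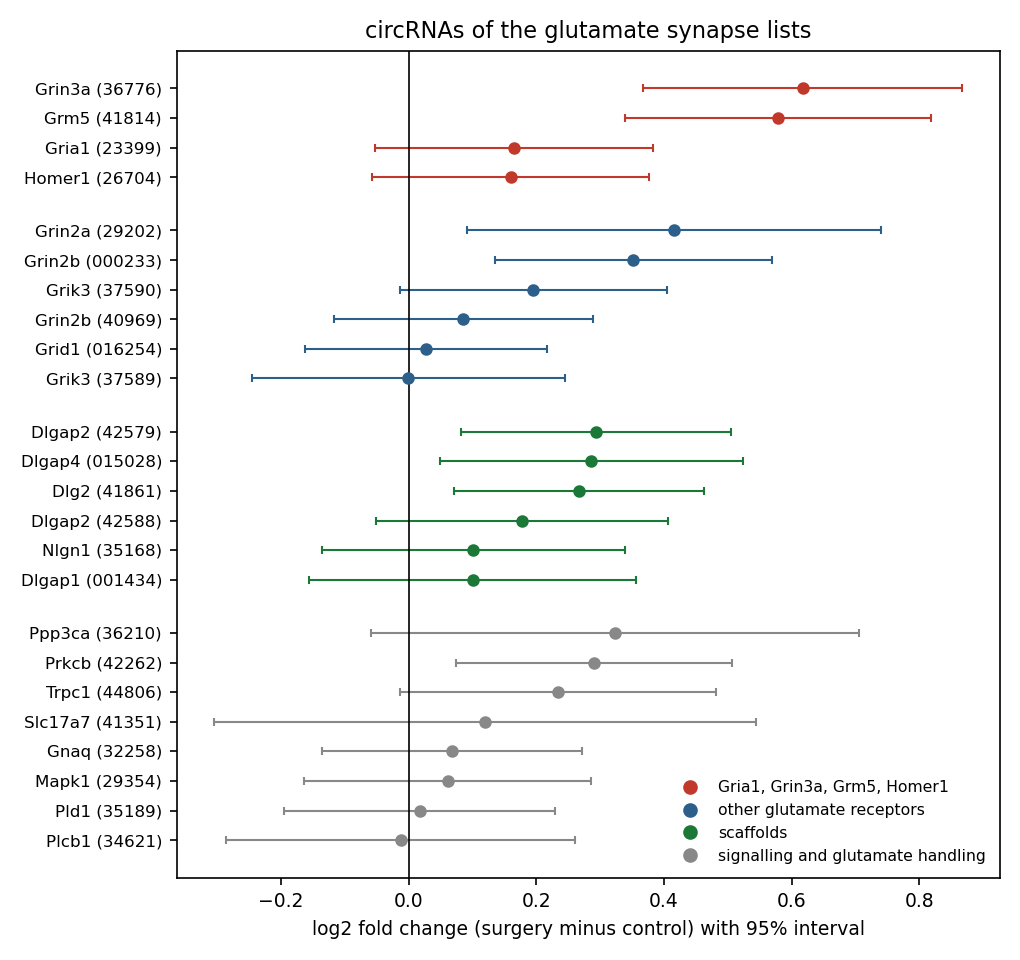
Log2 fold change, surgery minus control, with its 95% interval from limma's test (horizontal axis) for each of the 24 circRNAs of the glutamate synapse lists that could be read, in 4 groups of host genes. Grin3a at 0.62 and Grm5 at 0.58 lie to the right of all others, of which Grin2a at 0.42 is the nearest, and the lowest value is −0.01 for Plcb1.

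Of 24 postsynaptic scaffold and adhesion genes, 6 had a circRNA in these rows, which are Homer1, Dlg2, Dlgap1, Dlgap2, Dlgap4 and Nlgn1. Apart from Homer1 they gave 6 circRNAs. None of them had an adjusted p under 0.05 in limma's test or passed the thresholds on fold change and unadjusted p, and their median log2 fold change was 0.22. In limma's test an unadjusted p under 0.05 was found for 3 of the 6, all higher after surgery. Such a p with a higher value was found for 11.6% of all tested probes and 24.7% of the readable rows. The highest log2 fold change was 0.29 for mmu_circRNA_42579 of Dlgap2, which encodes a protein that binds PSD-95 (standard error 0.10, adjusted p = 0.141), and its groups did not overlap. The lowest was 0.10 for mmu_circRNA_001434 of Dlgap1, from the same family (adjusted p = 0.640). The Homer1 value of 0.16 lay within this range.

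Of 36 genes for receptor signaling and glutamate handling, 8 had 1 circRNA each there. In limma's test none had an adjusted p under 0.05 or passed those thresholds, 1 of the 8 had an unadjusted p under 0.05, against 24.7% of the readable rows, and the median log2 fold change was 0.09. The highest was 0.32 for mmu_circRNA_36210 of Ppp3ca, the catalytic subunit of calcineurin (limma's test, standard error 0.17, adjusted p = 0.311). The lowest was −0.01 for mmu_circRNA_34621 of Plcb1, a phospholipase C that acts downstream of mGluR5 (adjusted p = 0.966). mmu_circRNA_41351 of Slc17a7, the vesicular glutamate transporter of hippocampal excitatory neurons, changed by 0.12 on the same scale, with an adjusted p of 0.750 in limma's test.

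Markers could be read for few cell types. Of 7 neuronal markers, Slc17a7 and Rims1 had a circRNA, well above background on all 6 arrays. The Rims1 circRNA lay between 11.3 and 11.4 on the surgery arrays and between 11.1 and 11.5 on the control arrays on the log2 scale. Of 3 oligodendrocyte markers, Mbp, which encodes a myelin protein, had a probe for its linear mRNA. Linear RNA had been digested with RNase R, so that probe read what was left, and whether it follows oligodendrocyte content was not tested. It read 5.79 to 6.14 on the surgery arrays and 5.58 to 5.63 on the control arrays, without overlap, a log2 difference of 0.36. Of all tested circRNA probes, 13.5% were higher after surgery without overlap. The part of Mbp in the values of Grin3a and Grm5 was not tested. Of 4 astrocyte and 3 microglia markers, 0 were among the readable rows or the named linear probes.

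Across the alternatives in processing, Grin3a and Grm5 kept a higher value after surgery in 21 of 21 alternatives and Homer1 in 21 of 21, while Gria1 did so in 19. The alternatives reuse the arrays from which the members were listed as higher, so this direction is not read as a result. The thresholds on fold change and unadjusted p were passed in 21 of 21 alternatives by Grin3a and by Grm5, in 1 by Homer1 and in 0 by Gria1. With the processing as reported, 4.19% of all tested probes passed them as higher. The adjusted p of Grin3a lay between 0.0274 and 0.704 and was under 0.05 in 4 alternatives. That of Grm5 lay between 0.0217 and 0.704 and was under 0.05 in 4.

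**Figure D5:**
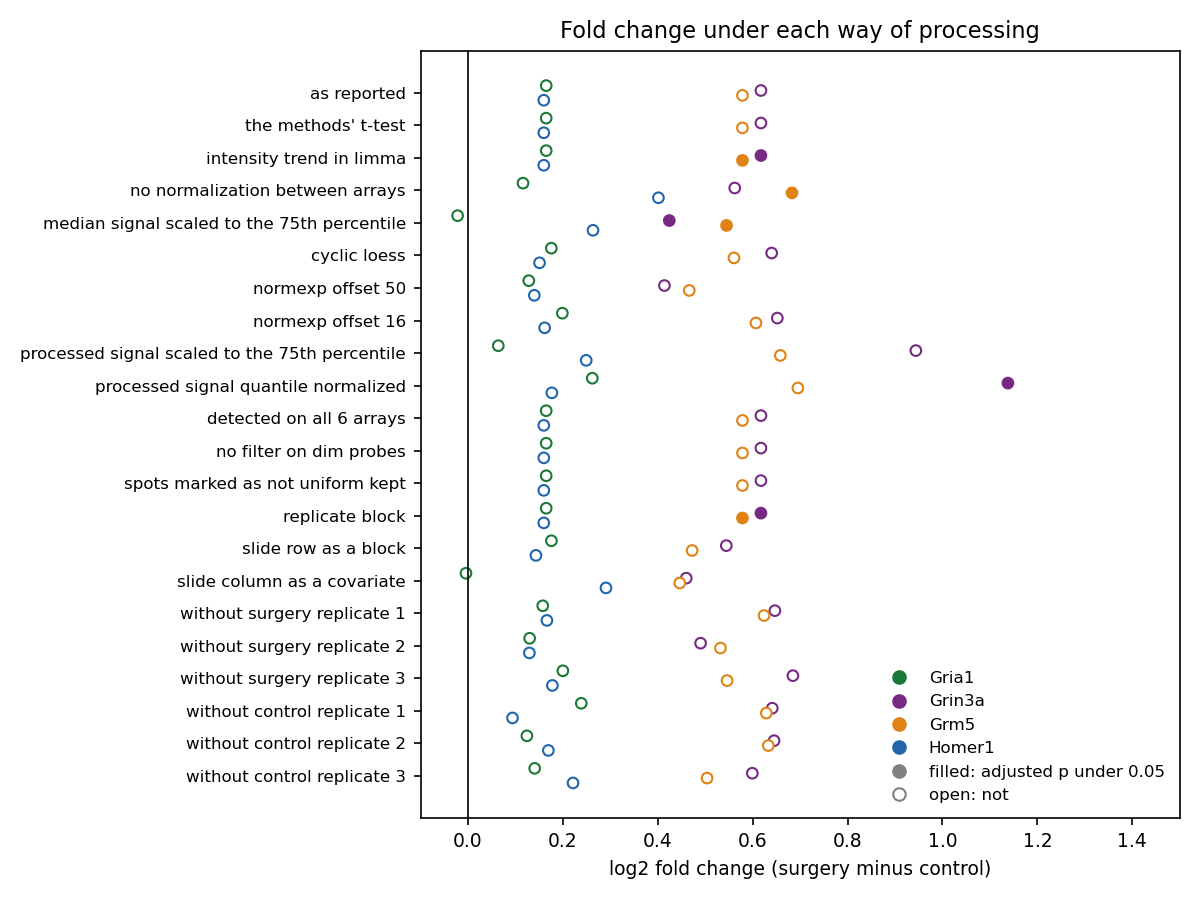
Log2 fold change, surgery minus control (horizontal axis), of the 4 circRNAs as reported and under each of the 21 alternatives (rows), with filled points where the adjusted p was under 0.05. Grin3a and Grm5 stay to the right of Gria1 and Homer1 in every row, with Grin3a reaching 1.14 on the quantile-normalized processed signal, and Gria1 falls just below 0 in 2 rows.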

How the data were processed

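Scanned images were read by the authors with Agilent Feature Extraction 11.0.1.1. The authors deposited, spot by spot, the median intensity, the median intensity of the local background and a processed intensity after background subtraction and spatial detrending, none of them normalized between arrays, together with marks such as well above background and not uniform. The median intensity was quantile normalized over all spots with limma 3.58.1 in R 4.3.3 and taken to log2. Testing was limited to the 12499 circRNA probes that the software marked positive and significant, and also well above background, on 3 or more of 6 arrays. Among their spots, 14 that it marked not uniform were left out. The groups were compared with lmFit and eBayes, with Benjamini-Hochberg adjustment over all tested probes. Single values were compared by exact permutation of the 6 arrays (scipy 1.17.1, Python 3.11.15). Figures were drawn with matplotlib 3.10.9, and jsonlite 2.0.0 read the file list.

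From the study's supplementary list only names, positions, host genes and probe sequences were taken, and 1257 rows could be read. RefSeq symbols on GRCm38.p6 named the linear probes. The p-values measure the spread between these mice.

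The members, the gene lists and the tests were chosen with earlier results of these data known. Named circRNAs are the 4 members, the other receptor circRNAs of the readable rows, the highest and lowest of the scaffold and signaling lists, the markers, and for each member the 3 rows with the highest Pearson correlation over the 6 arrays, apart from a few items that are not reported here. The test was also tried on simulated arrays, and nothing reported here rests on that trial. Alternatives tried included the t-test of the methods, a trend of variance with intensity, other normalizations, background corrections and signals, other filters, the replicate number, the slide position and each array left out.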

Additional observations from a re-analysis of the deposited data

How the results depend on the processing

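Grin3a had an adjusted p under 0.05 with an intensity trend in limma (log2 fold change 0.62), with the median signal scaled to the 75th percentile (0.42) and with the quantile-normalized processed signal (1.14). Grm5 did so with the trend (0.58), without normalization between arrays (0.68) and with the scaled median signal (0.54). The log2 fold change of Gria1 turned to −0.022 with the scaled median signal and to −0.0042 with slide column as a covariate. The median over all tested probes shifted to −0.18 with that scaling and to −0.15 with the scaled processed signal, and Gria1 lay 0.15 and 0.21 above these medians. With arrays left out in turn, Gria1 lay between 0.12 and 0.24, Grin3a between 0.49 and 0.68, Grm5 between 0.50 and 0.63 and Homer1 between 0.09 and 0.22.

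The count of probes with an adjusted p under 0.05, which was 6, became 0 with the methods' t-test, with normexp at an offset of 50, with detection on all 6 arrays and with slide row or column in the fit. It was 153 with the trend, 157 without normalization, 2544 with the scaled median signal, 13 with cyclic loess, 59 with normexp at an offset of 16, 1 with the scaled and 84 with the quantile-normalized processed signal and 10 without a filter. With arrays left out it ran from 0 to 77, and the 77 came without control replicate 1. At the fold change and unadjusted p thresholds, 524 probes were higher and 242 lower (68.4% higher). The higher count was 973 without normalization, 171 with normexp at an offset of 50 and 1334 with the quantile-normalized processed signal, and 396 to 767 with arrays left out. The lower count was 140 with the methods' t-test, 2052 with the scaled median signal (15.4% higher), 103 with normexp at an offset of 50, 2431 with the scaled (23.6% higher) and 1064 with the quantile-normalized processed signal (55.6% higher), 471 with slide row as a block, and 174 to 422 with arrays left out. The cause of these shifts was not tested.

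Same-numbered arrays of the 2 groups share only a number in the labels. Their deviations from the group means over 12485 probes correlated at 0.28, 0.25 and −0.02 for replicates 1, 2 and 3. Differently numbered arrays ran from −0.36 for surgery replicate 1 with control replicate 2 to 0.17 for surgery replicate 3 with control replicate 2. A pairing of the mice was not tested. With a replicate block, 199 probes had an adjusted p under 0.05, and Grin3a and Grm5 were among them (adjusted p = 0.0444 for each from limma's test) at unchanged log2 fold changes of 0.62 and 0.58. The block changed no call of Gria1 or Homer1.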
